A study of Mus musculus with 8 samples.

Results

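The material was pancreatic islets hand-picked from C57BL/6J mice that lacked the insulin-degrading enzyme (Ide-/-), represented by 3 RNA-seq libraries among the 8 of the series. The libraries were chosen by the genotype in their titles. The mice are labelled female, were 10 weeks old when a high-fat diet with 60 kcal% fat began, and ate it for 2 weeks. Every sample of the series had this diet, so lean islets were not analysed here, and the 5 remaining libraries (Ide+/+) were used only to check the level of Ide. The labels number the samples as biological replicates without saying how many animals gave each one, how the Ide allele was made, or whether it was absent from every tissue.

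Levels are in TPM, the length-scaled transcript abundance of RNA-seq, in which the reads of a gene are divided by its effective length and scaled so that every library has the same sum. TPM can be compared between genes, but because the sum is fixed a high level of a few genes lowers the value of all the others. The depth of replicates 1, 2 and 3 was 17445976, 13237966 and 7143424 estimated counts. Values for single genes are given in that order throughout, in TPM unless stated. A gene with no count in a library could still lie under a limit of 3 counts, which is 0.172, 0.227 and 0.42 CPM (counts scaled to library size, with no division by length) in the 3 libraries, counting error only.

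Islets are small endocrine organs in the exocrine pancreas. Beta cells make insulin, alpha cells glucagon, delta cells somatostatin and PP cells pancreatic polypeptide, and all store their hormones in dense-core granules. In beta cells, glucose enters by a transporter, is metabolized and raises ATP, which closes ATP-sensitive potassium (KATP) channels. The membrane then depolarizes, voltage-gated calcium channels open, and granules fuse with the membrane. Insulin-degrading enzyme is a metalloprotease that cleaves insulin, glucagon and other small peptides.

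Ide (ENSMUSG00000056999, GRCm38 chr19:37268743-37337852, minus strand) had 6, 7 and 4 counts, or 0.2, 0.12 and 0.1 TPM, against 4 to 7.87 TPM in the 5 Ide+/+ libraries. The low level therefore matched the genotype label in each of the 3 libraries. The sex label did not match. Xist, the RNA that coats the inactive X chromosome of female cells, had 0 to 2.33 counts in the 3 libraries, while the Y-linked gene Ddx3y had 778 to 2139 counts, Eif2s3y 590 to 2109, Kdm5d 155 to 567 and Uty 171 to 632. These are therefore libraries labelled female that carry Y-linked transcripts, and the values below belong to libraries of that kind.

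Freedom from exocrine tissue was checked on 37 acinar markers, the digestive enzymes and factors of the surrounding exocrine cells. They summed to 0.634%, 1.32% and 1.35% of TPM (1.1 ± 0.403%, SD, n = 3), and 33 of the 37 reached 1 TPM in all 3 libraries. The amylase genes Amy2a1 to Amy2a4 are not among the 37. With them, an addition made after seeing the data, the mean share was 1.31 ± 0.517%. The pancreatic elastase gene Cela2a stood at 1342, 3398 and 3542 TPM and the lipase cofactor Clps at 819, 1333 and 1527. Ptf1a, a factor that specifies acinar cells, stayed at 0.2 TPM or less. Acinar transcripts were thus a small share of the RNA but not absent, and replicate 1 held the least. In bulk samples such as these, fewer cells of a type and less RNA per cell cannot be told apart.

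A few genes made up most of the RNA. In each library, 4 to 5 genes carried 50% of all TPM, and 10 genes were above 10000 TPM in all 3. At the other end, 11084 genes reached 1 TPM in all 3 libraries, 9896 of them protein-coding. Genes at 10 TPM or more in all 3 numbered 3119, and 299 reached 100 TPM.

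Listed hormone genes took 48.6%, 42.2% and 34.0% of TPM (41.6 ± 7.29%, SD, n = 3), led by the insulin genes with 37.5%, 27.8% and 23.0%. The mitochondrial genome took 9.67%, 15.7% and 30.1%. A further 4.24%, 6.43% and 11.8% was assigned to 7 nuclear pseudogenes that are near copies of mitochondrial genes, 6 of them side by side on chromosome 1. The counting divides reads between such copies, so the split between the mitochondrial genes and these pseudogenes is uncertain and only their sum is well defined. The largest, Gm10925, was listed at 20452, 31048 and 69169 TPM. Hormone transcripts were highest in replicate 1 and mitochondrial transcripts in replicate 3, which was also the shallowest library. All genes outside the hormones, mitochondria and copies, Malat1 locus and acinar markers shared the last 22.2%, 20.8% and 17.3%. That remainder was smallest in replicate 3, so a gene that keeps its proportion within it has its lowest TPM there. On counts scaled by the trimmed mean of M-values, replicate 3 was the lowest library for 5769 of 14167 genes and the highest for 5643.

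**Figure D1:**
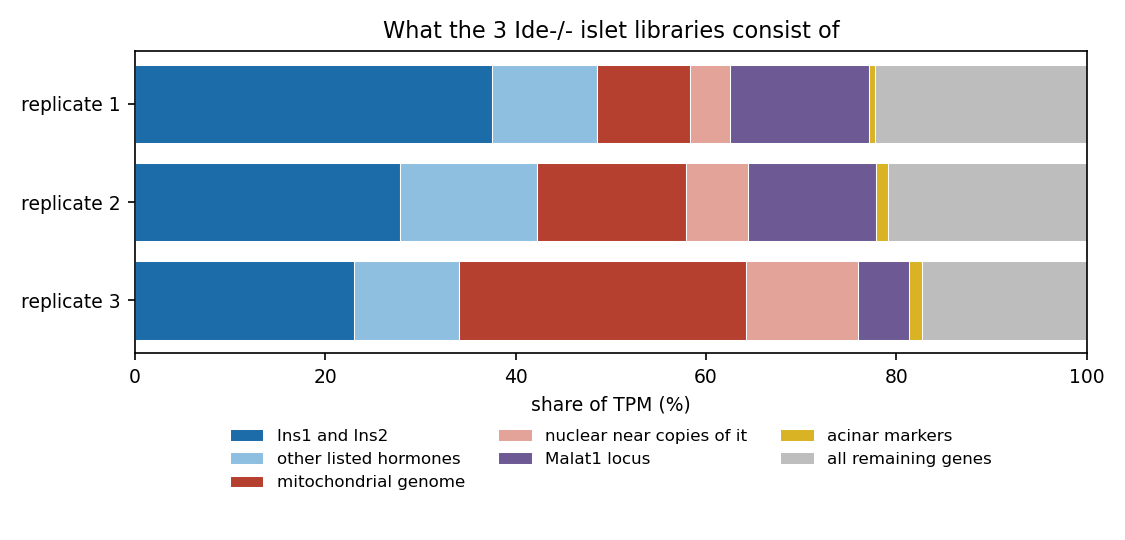
Share of TPM (horizontal axis, percent) in each of the 3 Ide-/- libraries, split into insulin genes, other listed hormones, the mitochondrial genome, its nuclear near copies, the Malat1 locus, acinar markers and all remaining genes. The insulin share is 37.5% in replicate 1 and 23.0% in replicate 3, and the mitochondrial genome runs the other way, from 9.67% to 30.1%.

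Malat1, a nuclear-retained long noncoding RNA (chr19:5795690-5802672, minus strand), ranked 2 by mean level of all genes at 94197, 84773 and 30334 TPM. Gm37376, an unclassified transcript on the opposite strand of the same locus, ranked 6 at 52306, 49942 and 22751 TPM. Reads of overlapping genes on opposite strands cannot be told apart without strand information, so the pair is counted together. The pair made 14.7%, 13.5% and 5.31% of TPM and 8.02%, 7.26% and 3.19% of estimated counts. The effective length behind the Malat1 level was only 421 to 487 bases, far under the span of the gene, so its TPM rests on a short annotated transcript. Both scales put replicate 3 lowest.

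Several other leaders also rest on short effective lengths. The mitochondrial gene mt-Atp8, a small subunit of ATP synthase, ranked 3 by mean TPM at 25259.5, 42937 and 96104, with an effective length of 72.6 to 76.4 bases, and ranked 22 by counts. It overlaps mt-Atp6 (8439, 15629.8 and 35470.1 TPM), another subunit of the same enzyme. mt-Cytb, the cytochrome b of complex III, with an effective length of 1009 to 1014 bases, stood at 26883, 43369 and 89938 TPM. Of the 20 genes with the highest mean TPM, 18 were also among the 20 with the highest mean count.

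Of the hormone genes, 1 transcript was far above the rest. Ins2, the ancestral copy of the mouse insulin gene pair (ENSMUSG00000000215, chr7:142678656-142743381, minus strand), reached 346399, 257248 and 211294 TPM and was the highest gene in every library. Its retrogene copy Ins1 (chr19:52264297-52265476, plus strand) reached 29023, 21179.8 and 18786 TPM. Gcg, the glucagon precursor gene (chr2:62474530-62483650, minus strand), reached 44297, 76643 and 35798 TPM and was highest in replicate 2. Ins2 lay far above every other hormone in all 3 libraries with no overlap of ranges.

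Neighbours among the next 6 hormones could not be ordered beyond their spread, although genes farther apart could. Ppy, encoding pancreatic polypeptide, was at 28388, 20427 and 40182 TPM, with its maximum in replicate 3. Pyy, encoding peptide YY, was at 14803, 20756 and 19163 TPM. Iapp, encoding the amyloid polypeptide that beta cells release with insulin, was at 16175, 10124 and 6643 TPM, highest in replicate 1 and lowest in replicate 3 as both insulin genes were. Sst, encoding somatostatin, was at 6495, 15299 and 8293 TPM, highest in replicate 2 like Gcg. Each neighbouring pair from Gcg down to Sst exchanged places in at least 1 library, and their ranges overlapped. The range of Gcg, from 35798 to 76643 TPM, lay above those of Ins1, Pyy, Iapp and Sst, and that of Ins1, from 18786 to 29023, lay above those of Iapp and Sst.

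A wide gap followed. Nucb2, the nesfatin precursor, came next at 127, 77.9 and 64.9 TPM, then Ucn3, the urocortin 3 gene of mature beta cells, at 73.9, 62.97 and 37.3 TPM and Pdyn, the dynorphin precursor, at 33.6, 30.9 and 20.2 TPM. Ghrl, encoding ghrelin, was at 8.35, 19.3 and 22.8 TPM, lowest in replicate 1, from only 79 to 131 counts. Of the 33 hormone and peptide genes listed, 15 reached 1 TPM in all 3 libraries and 15 stayed under 1 TPM in all 3. Among the latter were Gip and Cck, with Gip at 0 TPM in every library and Cck at 0.28 TPM or less.

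**Figure D2:**
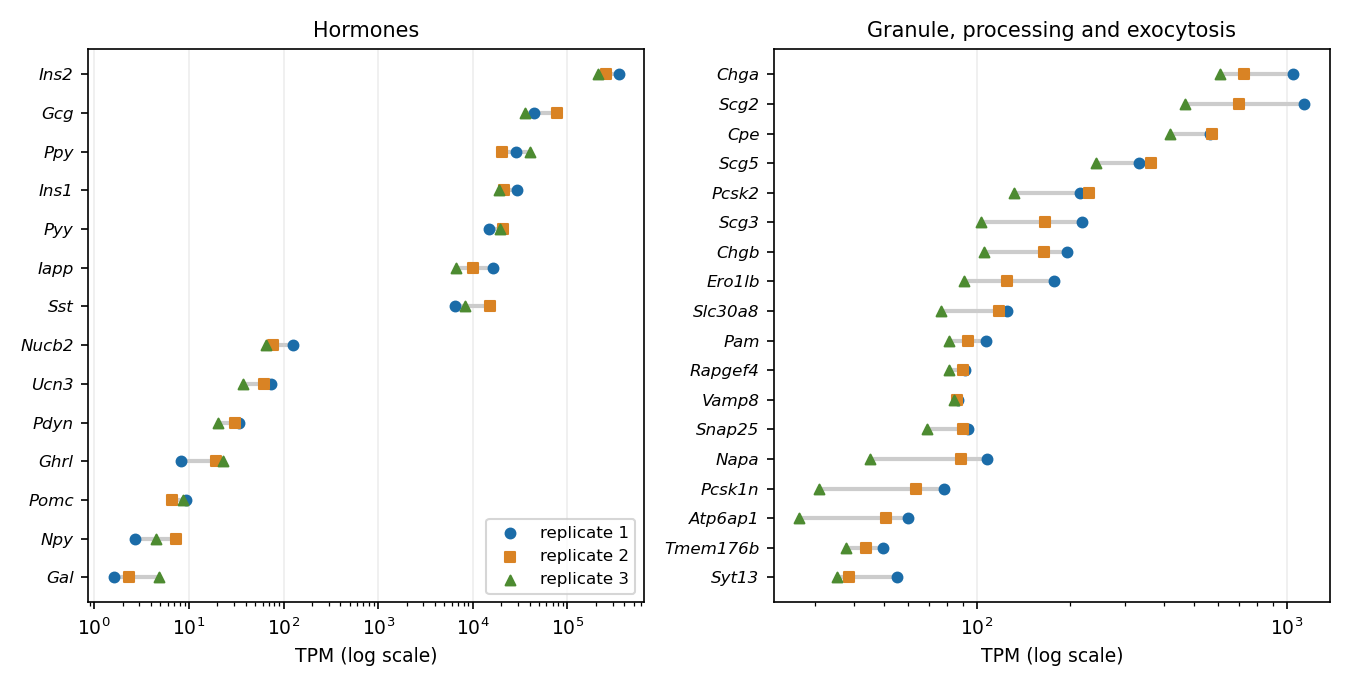
TPM (log axis) of the 14 hormone genes and the 18 granule, processing and exocytosis genes with the highest mean, each point a library and each bar the range over the 3 Ide-/- libraries. Ins2 lies between 211294 and 346399 TPM, 6 further hormones lie between 6495 and 76643, and the next gene, Nucb2, is at 127 or less.

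Ratios within a library do not depend on how the library was scaled. Ins2 over Ins1 was 11.9, 12.1 and 11.2, a log2 ratio of 3.56 ± 0.06 (SD, n = 3), the smallest SD among the hormone ratios computed. It rests on the effective lengths, about 328 to 332 bases for Ins2 and 927 to 932 for Ins1, and on the division of reads between near-identical coding sequences. Total insulin exceeded Gcg by 8.48, 3.63 and 6.43 times, Sst by 57.8, 18.2 and 27.7 times and Ppy by 13.2, 13.6 and 5.73 times. Iapp over Ins1 was 0.557, 0.478 and 0.354. The balance of Gcg, Sst and Ppy to insulin thus differed 2.33 to 3.18 times between libraries, and that of Pyy 2.11 times. The balance of the insulin genes differed 1.08 times.

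Among the 7 main hormone genes alone, Ins2 made 71.3%, 61.0% and 62.1% of their TPM and Gcg 9.12%, 18.2% and 10.5%. Ppy made 5.85%, 4.84% and 11.8%. Among these 7 genes, the share of Ins2 was highest in replicate 1, that of Gcg in replicate 2 and that of Ppy in replicate 3.

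Many islet transcription factors are homeodomain proteins that bind sites with a TAAT core. The promoters of the 6 main hormone genes with a RefSeq entry are shown in order of mean TPM, because these genes head the hormone hierarchy. Ins2 is named only. Each run is the 250 bases upstream of the RefSeq start on GRCm38.p6, read 5′ to 3′ on the strand of the gene, with TAAT and its reverse complement ATTA in capitals. Of the starts listed for Pyy the most upstream is used.
Gcg, chr2:62483654-62483903, minus strand: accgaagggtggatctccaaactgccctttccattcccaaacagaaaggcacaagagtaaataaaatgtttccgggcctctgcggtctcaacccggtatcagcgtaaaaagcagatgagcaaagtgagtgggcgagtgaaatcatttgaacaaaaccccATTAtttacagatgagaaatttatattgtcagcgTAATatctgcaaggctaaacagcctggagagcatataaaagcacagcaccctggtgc
Ppy, chr11:102101320-102101569, minus strand: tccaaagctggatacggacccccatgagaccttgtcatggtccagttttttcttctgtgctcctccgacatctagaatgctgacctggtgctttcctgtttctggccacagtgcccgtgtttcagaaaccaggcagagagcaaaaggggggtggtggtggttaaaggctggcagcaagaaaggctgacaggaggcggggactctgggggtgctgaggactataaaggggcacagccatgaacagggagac
Ins1, chr19:52264047-52264296, plus strand: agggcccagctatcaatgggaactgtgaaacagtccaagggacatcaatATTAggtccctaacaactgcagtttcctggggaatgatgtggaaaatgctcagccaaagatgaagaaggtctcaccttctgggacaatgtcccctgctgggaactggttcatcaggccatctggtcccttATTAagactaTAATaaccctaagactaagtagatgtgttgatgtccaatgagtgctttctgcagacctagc
Pyy, chr11:102107833-102108082, minus strand: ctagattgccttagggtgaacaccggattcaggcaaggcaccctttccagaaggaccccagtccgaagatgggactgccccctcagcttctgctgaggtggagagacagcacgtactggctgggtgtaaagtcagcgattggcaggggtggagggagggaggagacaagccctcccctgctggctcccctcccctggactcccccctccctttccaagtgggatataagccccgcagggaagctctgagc
Iapp, chr6:142298175-142298424, plus strand: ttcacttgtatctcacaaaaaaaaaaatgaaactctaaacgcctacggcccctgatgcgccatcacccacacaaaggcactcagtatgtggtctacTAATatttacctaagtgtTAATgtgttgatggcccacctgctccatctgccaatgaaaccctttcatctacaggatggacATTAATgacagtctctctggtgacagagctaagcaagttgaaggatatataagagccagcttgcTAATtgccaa
Sst, chr16:23890845-23891094, minus strand: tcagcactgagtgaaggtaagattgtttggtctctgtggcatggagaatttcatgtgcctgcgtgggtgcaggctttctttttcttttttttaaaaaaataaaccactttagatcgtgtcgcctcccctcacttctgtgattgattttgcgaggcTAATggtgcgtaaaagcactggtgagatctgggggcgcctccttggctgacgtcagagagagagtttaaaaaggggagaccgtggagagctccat
Iapp held 5 matches (a pair of them overlapping), Ins1 3, Gcg 2, Sst 1, and Ppy and Pyy 0. Over both strands, 54.9% of 32851 such promoter windows of the mouse held at least 1 match, the median was 1, and 17.3% held 3 or more. A match is a run of letters and not a shown binding site, and no match says only that these letters are not in this window.

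The machinery that turns prohormones into hormones lay far below the main hormones, and 6 of its 19 matched genes had a mean above that of Nucb2. Cpe, the carboxypeptidase that trims basic residues, led it at 564, 573 and 418 TPM. Scg5, the 7B2 chaperone of the convertase PC2, followed at 333, 363 and 241 TPM, and Pcsk2, which encodes PC2, at 216, 229 and 132 TPM. These 3 kept their order in every library without overlap of ranges between neighbours.

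Further down stood Ero1lb, the oxidase that helps proinsulin form disulfide bonds, at 177, 125 and 91.05 TPM. Slc30a8, the granule zinc transporter, was at 125, 118 and 76.5 TPM, and Pam, the amidating enzyme, at 107, 93.7 and 81.5 TPM. Pcsk1, encoding the convertase PC1/3 that starts proinsulin cleavage, was at 34.6, 27.1 and 11.8 TPM, under its inhibitor Pcsk1n at 78.01, 63.5 and 31.03. Pcsk2 therefore exceeded Pcsk1 by 6.23, 8.45 and 11.2 times. The chaperone Pdia4 (30.7, 22.1 and 10.3 TPM) and the oxidase Qsox1 (21.6, 13.5 and 7.71 TPM) had the largest coefficient of variation (CV) of TPM in this list, 48.6% and 48.8%. Of 19 matched genes of the list 15 reached 1 TPM in all 3 libraries, and Ide was among the 3 that stayed under it.

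Granins, the acidic proteins that condense the granule core, headed the granule genes listed here. Genes outside these lists stood between them and the main hormones, such as Resp18 at 1459, 2244 and 1400 TPM. Chga (chromogranin A) stood at 1048, 726 and 607 TPM and Scg2 (secretogranin II) at 1138, 698 and 469.9, and their order changed between libraries. Scg3, which tethers chromogranin A to the granule membrane, was at 218, 166 and 103 TPM and Chgb at 194, 164 and 105. The 4 granins shared a pattern, highest in replicate 1 and lowest in replicate 3.

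Granule membrane genes lay lower. The proton pump accessory subunits Atp6ap1 (59.9, 50.99 and 26.8 TPM) and Atp6ap2 (44.8, 38.99 and 27.6 TPM) and the membrane protein gene Tmem176b (49.9, 43.9 and 37.9 TPM) formed the next tier. The nucleotide transporter Slc17a9 (35.3, 21.4 and 13.7 TPM) and the small GTPase Rab3a (33.2, 26.9 and 12.2 TPM) had the largest CV among members with a mean of at least 10 TPM, 46.5% and 44.7%. In all, 33 of 39 matched granin and granule genes reached 1 TPM in all 3 libraries, and the list summed to 3269, 2340.2 and 1693 TPM.

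The fusion machinery was flatter. Rapgef4, the cAMP sensor Epac2 that potentiates secretion, was at 91.8, 89.8 and 81.2 TPM and Vamp8, a vesicle SNARE, at 86.95, 86.2 and 84.4 TPM. Snap25, the membrane SNARE, was at 93.5, 90.2 and 68.8 TPM. Vamp8 differed by only 1.53% CV on the TPM scale. Napa, the SNARE recycling adaptor, was at 108, 88.95 and 45.3 TPM, Syt13 at 55.3, 38.7 and 35.4 TPM and Stxbp2, a syntaxin-binding protein, at 56.1, 34.9 and 17.6 TPM, where replicate 3 was lowest. In this list 27 of 37 genes reached 1 TPM in all 3 libraries and none reached 100 TPM in all 3. Of its 28 neighbouring pairs, 5 kept their order in all 3 libraries, against 11 of 14 in the processing list and 245 of 621 (39.5%) over all lists. Such counts also depend on how close the means of neighbours lie, so they do not measure spread alone. In the ribosomal protein list, 14 of 78 pairs kept their order.

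G6pc2, the islet glucose-6-phosphatase, led the genes of glucose entry and coupling at 673, 412 and 389 TPM with no overlap with the next. Glycolytic and shuttle genes followed, with Aldoa at 95.3, 85.8 and 52.3 TPM, Mdh1 (the malate shuttle) at 93.8, 77.6 and 43.7 TPM and Pkm at 83.9, 67.8 and 33.02 TPM. Gapdh was at 59.4, 55.7 and 48.4 TPM and Eno1 at 56.1, 47.6 and 26.01. The uncoupling protein gene Ucp2 was at 37.5, 32.4 and 13.4 TPM and had the largest CV of the list at mean levels over 10 TPM, 45.8%.

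Glucose entry itself was modest. Slc2a2, the transporter GLUT2, was at 22.2, 19.1 and 16.9 TPM, and exceeded the widespread transporter Slc2a1 by 12.2, 14.7 and 24.4 times. Slc2a1 lies outside the rule for named genes and was added for its role after its values were seen. The hexokinase genes Hk1, Hk2 and Hk3 and the lactate transporter Slc16a1 were under 1 TPM in every library.

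Some genes are known to be kept off in beta cells while most tissues express them. Of 33 genes listed for this group, 17 reached 1 TPM in all 3 libraries and 13 stayed under 1 TPM in all 3. Ppp1r1a, a phosphatase inhibitor, headed the list at 94.98, 89.8 and 96.4 TPM, with 39.3% of its summed mean level. Whether beta cells repress Ppp1r1a was not examined, so its level is not read as that of a repressed gene. Next came the complement regulator Cd59a at 24.7, 23.2 and 20.1 and the glutathione transferase Mgst1 at 25.9, 15.1 and 22.6. Bulk islets hold other cells, so these levels do not say which cells carried the transcripts.

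Of 98 potassium channel genes, 15 reached 1 TPM in all 3 libraries and 70 stayed under 1 TPM in all 3. Abcc8, the sulfonylurea receptor subunit of the KATP channel, led all channel lists at 136, 112 and 105 TPM. Its pore partner Kcnj11 was at 5.82, 5.21 and 3.28 TPM, so that Abcc8 exceeded it by 23.4, 21.5 and 32.0 times although the channel holds both in equal number. Kcnk16, the two-pore channel TALK-1 of the islet, was second at 73.8, 46.2 and 33 TPM with no overlap with either neighbour.

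The remaining potassium genes were lower. Kcnip1, a channel-interacting calcium sensor, was at 28.2, 18.1 and 10.1 TPM with a CV of 48.4%. Kcnmb2, an accessory subunit of the BK channel, was at 18.2, 18.1 and 9.05 TPM and its pore gene Kcnma1 at 5.6, 5.02 and 2.03. Kcnk1 was at 13.2, 11.6 and 5.3 TPM. Replicate 3 was lowest for each of these.

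Among 26 voltage-gated calcium channel genes, 7 reached 1 TPM in all 3 libraries. Cacna1a, the P/Q-type pore, was at 21.4, 20.2 and 18.6 TPM and Cacna1d, an L-type pore, at 19.4, 13.2 and 12.5. Cacna1a was the higher in all 3 libraries, by 1.11, 1.53 and 1.48 times, although the ranges overlapped. The other L-type pore of islets, Cacna1c, was at 3.23, 3.05 and 2.5 TPM. Accessory subunits were led by Cacna2d1 at 9.28, 10 and 5.11 TPM and Cacnb3 at 4.12, 3.66 and 3.18.

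Sodium channels were led by Scn3a at 10.9, 9.4 and 4.85 TPM and Scn9a at 8.93, 7.15 and 4.25, and 5 of 15 genes reached 1 TPM in all 3 libraries. Among TRP channels and their relatives, 9 of 27 did, led by the lysosomal channel Mcoln1 at 14.3, 11.3 and 8.34 TPM and Trpm7 at 10.2, 8.78 and 10.8. Trpm5, the calcium-activated cation channel of beta cells, was at 3.37, 4.26 and 1.99 TPM. Chloride channels were led by Clcn4 (15.8, 16.3 and 17.3 TPM), Clcn3 (15.1, 14.6 and 9.17 TPM) and Ano6 (15.3, 13.3 and 7.97 TPM). In TPM, Clcn4 and Trpm7 were highest in replicate 3, unlike the potassium, calcium and sodium channels named above. Relative to the genes outside the hormones, mitochondria and copies, Malat1 locus and acinar markers, the contrast was not complete. Replicate 3 was then highest for 1 of 15 detected potassium, 1 of 7 calcium and 1 of 5 sodium channel genes. It was highest for 4 of 9 TRP and 3 of 11 chloride channel genes, and for 37.7% of all detected genes.

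The calcium pumps of the endoplasmic reticulum, Atp2a2 (30.8, 28.3 and 28.9 TPM) and Atp2a3 (29.04, 20.9 and 19.5 TPM), stood above its release channels. Itpr1, the main inositol trisphosphate receptor here, was at 6.58, 8.75 and 4.09 TPM, while the ryanodine receptor Ryr2 had 3 counts over the 3 libraries and stood at 0.04 TPM or less. Connexins were led by Gja1 at 8.41, 9.95 and 8.71 TPM and Gjd2, the gap junction protein that couples beta cells, at 7.39, 6.62 and 6.07 TPM, with 16 of 20 family members under 1 TPM in every library.

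**Figure D3:**
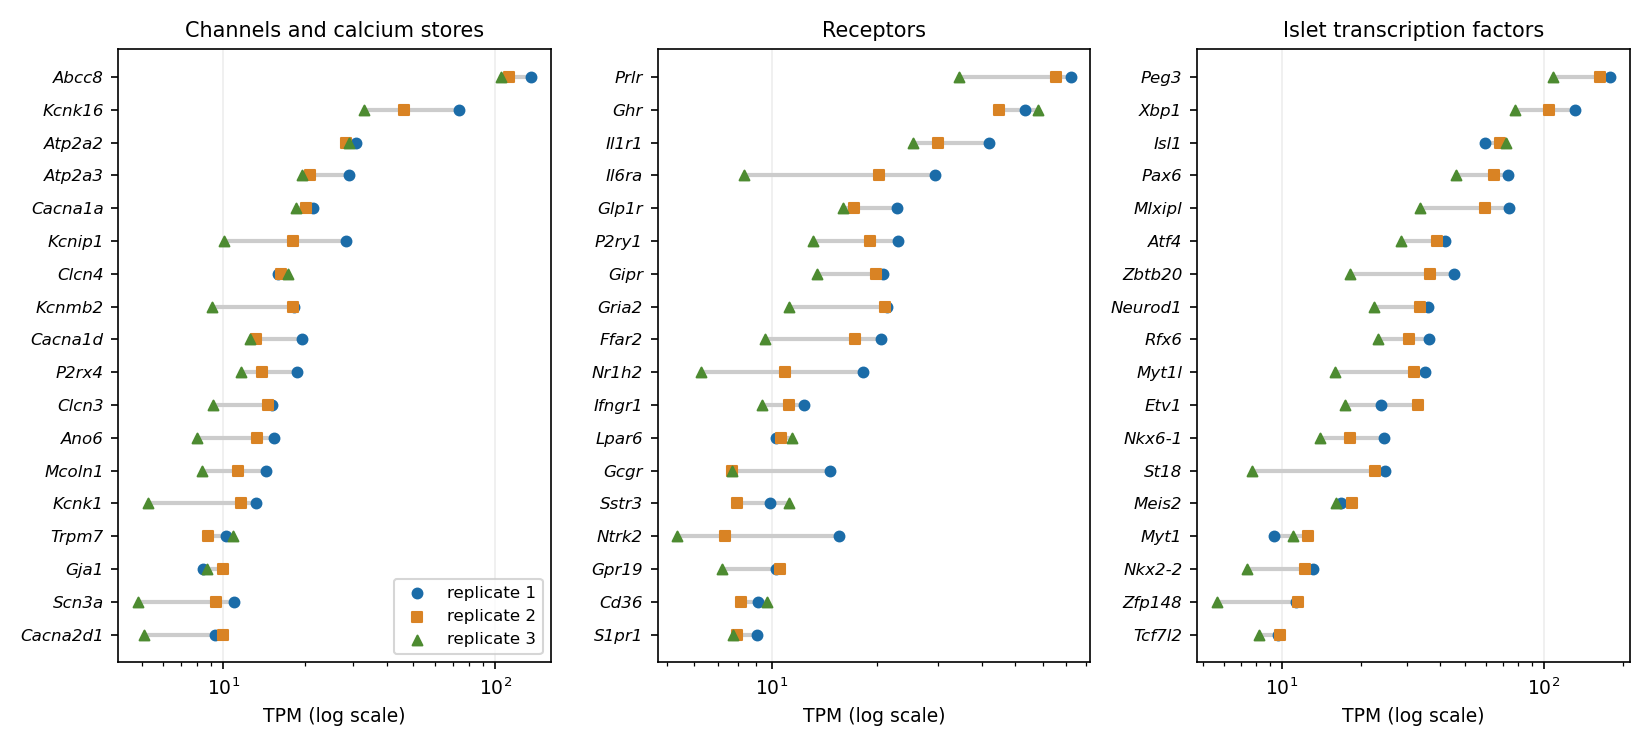
TPM (log axis) of the 18 genes with the highest mean among channels and calcium stores, receptors, and islet transcription factors, each point a library and each bar the range over the 3 Ide-/- libraries. Abcc8 stands apart at 105 to 136 TPM, receptors reach 72.1 TPM at most, and most bars end on the left with replicate 3.

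Receptors lay below the leading processing and granule genes, and none of the listed receptors reached 100 TPM in all 3 libraries. Prlr, the prolactin receptor, was highest at 72.1, 65.5 and 34.4 TPM, and Ghr, the growth hormone receptor, was at 53.2, 44.9 and 58.2 TPM. Their order was reversed in replicate 3. Il1r1, the interleukin 1 receptor, was at 41.9, 29.98 and 25.5 TPM, and Il6ra, the interleukin 6 receptor alpha chain, at 29.4, 20.3 and 8.32 TPM with a CV of 54.8%. Of 53 growth factor, hormone and cytokine receptor genes, 26 reached 1 TPM in all 3 libraries.

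Among receptors for incretins, glucagon and somatostatin, 5 of 16 reached 1 TPM in all 3 libraries. Glp1r, the receptor of glucagon-like peptide 1, was at 22.9, 17.3 and 16.1 TPM and Gipr, the receptor of the other incretin, at 20.9, 19.9 and 13.5. Glp1r was the higher in 2 of 3 libraries, so the pair was not separable. Gcgr, the glucagon receptor, was at 14.7, 7.67 and 7.69 TPM and Sstr3, a somatostatin receptor, at 9.91, 7.96 and 11.2 TPM, again with overlapping ranges. Sstr2 stayed under 1 TPM and Sstr5 at 0.04 TPM or less.

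Nutrient and lipid receptors were led by Ffar2, a receptor for short-chain fatty acids, at 20.5, 17.3 and 9.58 TPM. Lpar6, a lysophosphatidic acid receptor, was at 10.3, 10.7 and 11.5 TPM and the fatty acid translocase Cd36 at 9.13, 8.19 and 9.67. Gpr119 was at 6.9, 8.44 and 4.67 TPM, Ffar4 at 4.89, 7.07 and 3.66 TPM and Ffar1, the long-chain fatty acid receptor of beta cells, at 5.74, 4.52 and 3.74 TPM. Of 36 matched genes 11 reached 1 TPM in all 3 libraries.

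Receptors for transmitters and peptides were led by P2ry1, a purinergic receptor, at 22.99, 19.1 and 13.1 TPM and Gria2, an AMPA glutamate receptor subunit, at 21.4, 21.1 and 11.2 TPM. Of 59 matched genes, 24 reached 1 TPM in all 3 libraries and 10 had no count in any. Only 1 of 24 neighbouring pairs in that list kept its order in all 3 libraries, so most neighbours could not be ordered. Mean levels still fell along the list, from 9.37 TPM for Gpr19 to 1.68 TPM for Gpr27.

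Transcription factors of the islet were mostly between 10 and 100 TPM at the top and few TPM below. Peg3, an imprinted zinc finger gene, was highest at 179, 164 and 108 TPM, followed by Xbp1, the factor of the unfolded protein response, at 132, 105 and 77.4 TPM. Isl1, a LIM homeodomain factor of all islet cells, was at 59.5, 67.9 and 71.6 TPM and Pax6, the paired homeodomain factor of endocrine cells, at 73.3, 64.7 and 46.4 TPM. Isl1 was lowest in replicate 1 and highest in replicate 3, the reverse of the other 3.

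Mlxipl, the glucose-responsive factor ChREBP, was at 73.8, 59.8 and 33.7 TPM and Atf4, the stress response factor, at 41.97, 39.2 and 28.6 TPM. Zbtb20 was at 45.2, 36.7 and 18.2 TPM. Neurod1, the helix-loop-helix factor that activates insulin transcription, was at 36.3, 33.8 and 22.5 TPM, and Rfx6, required to form most islet cell types, was highest among Rfx factors at 36.5, 30.7 and 23.2 TPM. Of 55 matched beta cell and pan-islet factors, 40 reached 1 TPM in all 3 libraries, 13 reached 10 TPM and only Peg3 reached 100 TPM in all 3.

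Factors that define beta cells were lower. Nkx6-1 was at 24.6, 18.2 and 14.03 TPM, Nkx2-2 at 13.2, 12.3 and 7.35 TPM and Pdx1 at 9.65, 6.18 and 2.97 TPM, each highest in replicate 1 and lowest in replicate 3. Mafa, which marks mature beta cells, was at 5.39, 6.68 and 5.39 TPM. Foxa2 was at 8.22, 6.06 and 5.35 TPM.

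Factors of the other endocrine cells overlapped the lower beta cell factors, and Pdx1 was above Irx2 in only 1 of 3 libraries. Etv1 led them at 23.8, 33.1 and 17.5 TPM. Irx2, an alpha cell factor, was at 3.95, 6.34 and 6.91 TPM and Hhex, the delta cell factor, at 2.61, 6.25 and 2.08 TPM. Hhex was highest in replicate 2, as Sst was. Pax4 had no count in any library. Neurog3, the endocrine progenitor factor, was at 1.67, 3.11 and 1.31 TPM, and the duct and progenitor factor Sox9 at 0.63, 1.1 and 0.68.

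Some families had a single member at 1 TPM or more in all 3 libraries, a level that 11084 of all 55487 gene IDs reached. Members under 1 TPM were not all without counts. No count in any library was found for 4 of 9 Pax, 4 of 12 LIM homeobox and 2 of 6 Irx genes. Pax6 was the only 1 of 9 Pax genes at 1 TPM or more in all 3 libraries, Isl1 the only 1 of 12 LIM homeobox genes, and Irx2 the only 1 of 6 Irx genes. None of 39 Hox genes reached 1 TPM in any library. The Fox family was led by Foxp1 at 15.2, 15 and 9.82 TPM and Foxn3 at 7.88, 7.11 and 10.4, with 10 of 44 genes at 1 TPM in all 3 libraries. Klf factors were broader, 12 of 17, led by Klf6 at 19.9, 22.5 and 11.3 TPM, Klf13 at 13.5, 15.3 and 18.4 and Klf9 at 11.7, 10.8 and 11.3. Among 47 nuclear receptors 22 reached 1 TPM in all 3 libraries, with Nr1h2, a liver X receptor, at 18.2, 10.9 and 6.25 TPM in front.

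Markers of other cell types were present at low levels. Of 20 endothelial markers, 15 reached 1 TPM in all 3 libraries and the list summed to 210.2, 194 and 212 TPM. Emcn (endomucin) was at 42.1, 39.6 and 55.1 TPM, Egfl7 at 32.2, 33.96 and 39.3 TPM and Esm1 at 21.3, 27.7 and 35.1 TPM, each highest in replicate 3. Plvap, the diaphragm protein of fenestrated capillaries, ran the other way at 38.9, 19.9 and 8.93 TPM with a CV of 67.1%. Vwf and Cldn5, typical of larger vessels and tight barriers, stayed under 1 TPM in every library.

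Pericyte markers summed to 124, 146 and 176 TPM, with Rgs5 at 70, 77.95 and 74.5 TPM and Higd1b at 19.7, 28.96 and 60.97 TPM, 9 of 14 reaching 1 TPM in all 3 libraries. Fibroblast and stellate markers summed to 120.4, 115 and 123 TPM, of which Sparc, a matrix protein that other cells also make, held 71.9, 72.4 and 67.3 TPM. Dcn (decorin) was at 12.2, 8.35 and 16.3 TPM, and Col1a1, Fn1 and Pdgfra stayed under 1 TPM. No collagen gene reached 10 TPM in all 3 libraries. Col4a1, a chain of basement membrane collagen, led them at 8.62, 5.66 and 9.96 TPM. The laminin chain Lamc1 was at 5.16, 4.6 and 6.74 TPM, the integrin chain Itgav at 26.2, 21.9 and 25.5 TPM and the protease inhibitor Timp3 at 57.1, 50.9 and 46.02 TPM.

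Macrophage and dendritic cell markers summed to 164, 169 and 207 TPM, with 13 of 20 at 1 TPM in all 3 libraries. The antigen presentation genes Cd74 (62.97, 64.4 and 82.4 TPM) and H2-Ab1 (30.1, 30.5 and 49.1 TPM) led them, while Ptprc, Csf1r and Adgre1 stayed under 1 TPM. None of 15 lymphocyte markers reached 1 TPM in all 3 libraries. Of 8 adipocyte markers only Fabp4 reached 1 TPM, at 42.2, 33.2 and 38.8 TPM, and Adipoq and Lep had no count. Red cell globins were present, with Hba-a2 at 572, 695 and 468 TPM and Hbb-bs at 400.5, 468 and 278 TPM, and alpha globin copies share reads.

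Duct markers summed to 360.2, 401 and 306 TPM, led by Spp1 (osteopontin) at 108, 129 and 115 TPM, Krt18 at 89.3, 72.6 and 46.3 TPM and the trefoil peptide Tff2 at 35.3, 77.4 and 72.3 TPM. Cftr, the chloride channel that defines duct cells, stayed at 0.14 TPM or less. Schwann cell and neuron markers were led by the adhesion molecule Ncam1 at 21.9, 26.3 and 22.4 TPM, and 9 of the 12 stayed under 1 TPM in all 3 libraries. Sox10 stayed at 0.04 TPM or less.

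To compare markers between libraries without the fixed sum of TPM, levels were also expressed relative to the remaining genes, those outside the hormones, mitochondrial genes and copies, Malat1 locus and acinar markers. On that scale, 10 of 13 beta cell markers detected in all 3 libraries were highest in replicate 1, 8 of 10 alpha cell markers in replicate 2 and 4 of 7 delta cell markers in replicate 2. Of 5 PP cell markers, 3 were highest in replicate 2 and 2, Ppy and Pyy, in replicate 3. Ppy was lowest in replicate 2, at 127784, 97979 and 231751 on that scale. Over all genes detected in all 3 libraries the shares were 37.1%, 25.2% and 37.7% for replicates 1, 2 and 3. Of the acinar markers, 24 of 33 were highest in replicate 3 and 1 in replicate 1. Endothelial markers were highest in replicate 3 for 13 of 15 genes, pericyte markers for 8 of 9, macrophage markers for 9 of 13 and fibroblast markers for 7 of 10. These counts describe 3 libraries, and the markers of a list are not independent of each other.

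**Figure D4:**
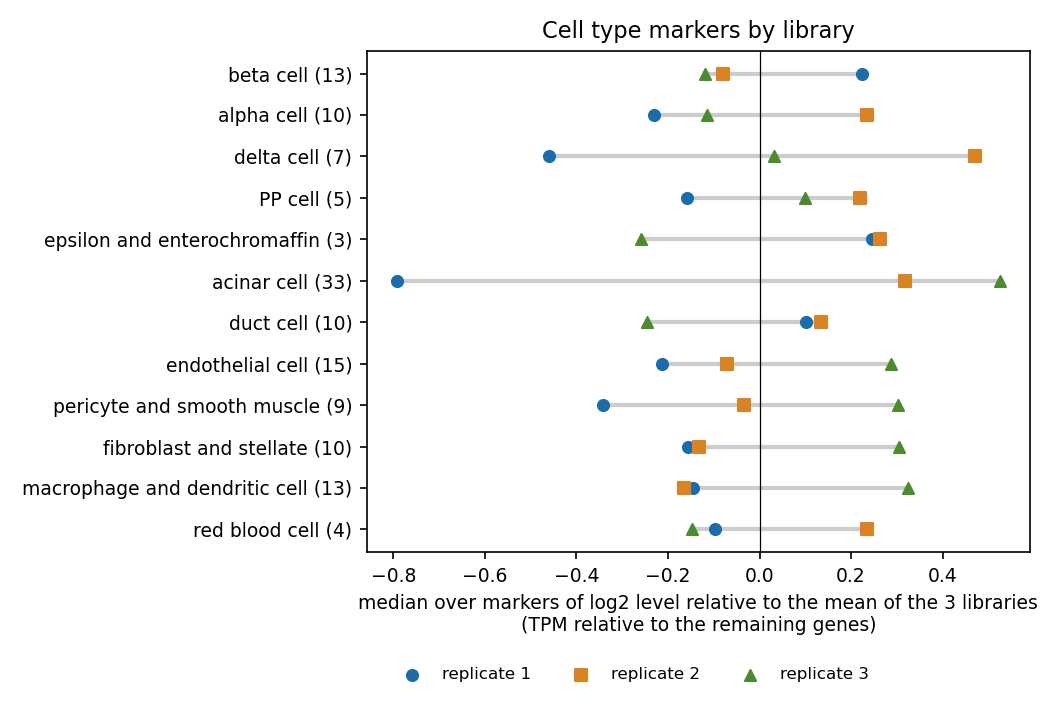
Median over the markers of a cell type of the log2 level in each Ide-/- library relative to the mean of the 3 (horizontal axis), on TPM relative to the remaining genes, with the number of markers detected in all 3 libraries in brackets. Beta cell markers lie highest in replicate 1 (+0.22), alpha, delta and PP cell markers in replicate 2 (+0.24, +0.47 and +0.22), and acinar, endothelial, pericyte, fibroblast and macrophage markers in replicate 3 (+0.29 to +0.52). The PP cell median does not follow Ppy, which on this scale is lowest in replicate 2.

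The spread between the libraries was measured on counts. After scaling by the trimmed mean of M-values, the common biological coefficient of variation, the relative spread beyond counting error, was 0.191 over 14186 genes that passed edgeR's expression filter. By pair it was 0.132 for replicates 1 and 2, 0.193 for replicates 2 and 3 and 0.244 for replicates 1 and 3. Replicate 3 therefore stood farther from the others than they stood from each other. Across 15414 genes with a mean of at least 10 counts, which are not independent replicates, Spearman's rho of TPM was 0.975 for replicates 1 and 2, 0.961 for 2 and 3 and 0.947 for 1 and 3. Replicate 3 is also the library with the lowest depth, the highest mitochondrial share, the lowest Malat1 share and the highest median of endothelial, pericyte, fibroblast and macrophage markers, and the part of each of these in its distance was not tested.

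Gene length moved with the library as well. Among protein-coding genes with a mean of at least 1 TPM, the 2143 of shortest effective length, median 809 bases, stood 0.13 higher on the log2 scale in replicate 3 than in replicate 1, relative to the remaining genes. In the 4 longer classes of 2142 genes each, the median stood 0.07 to 0.18 lower. For replicate 2 against replicate 1 the medians of the 5 classes lay between -0.08 and +0.04. The part of this length trend in the spread of single genes was not tested.

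Spread also differed with level. Genes with a mean of 10 to 31.3 counts had a median biological coefficient of variation of 0.206, beside a counting error of 0.218. Genes with 316 to 1000 counts had 0.157, beside a counting error of 0.045. The 54 genes with a mean of 10080 counts or more had 0.284, beside 0.00524, so the most abundant transcripts were less steady than those of middle level. Hormones, mitochondrial genes, their near copies and the Malat1 locus are among the genes of highest count. The median was 0.372 for mitochondrial genes, 0.289 for acinar markers and 0.258 for hormones. Level and kind of gene were therefore not separated here.

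The lists differed in their spread between libraries. The median SD of log2 CPM was 0.23 over all genes, 0.89 for the 13 mitochondrial genes, 0.73 for 34 acinar markers and 0.43 for 16 hormone genes that passed the count filter. Without replicate 1 the acinar value was 0.16, and without replicates 2 and 3 it was 0.94 and 0.81. Without replicate 3 the mitochondrial value was 0.57 and that of all genes 0.13. Cytosolic ribosomal protein genes, 79 of them, had 0.10. Beta cell markers had 0.21, processing enzymes 0.20, and islet factors 0.22, near the value for all genes, while delta cell markers had 0.47 and alpha cell markers 0.38. The alpha cell value was 0.20 without replicate 1. Without replicate 3, processing enzymes had 0.16 and islet factors 0.13, while beta cell markers had 0.22, above the 0.13 of all genes. Glucose entry and coupling had 0.24 and granins 0.29, and 0.14 and 0.15 without replicate 3. With all 3 libraries the hormone list was less steady than the lists of genes that process hormones or sense glucose.

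**Figure D5:**
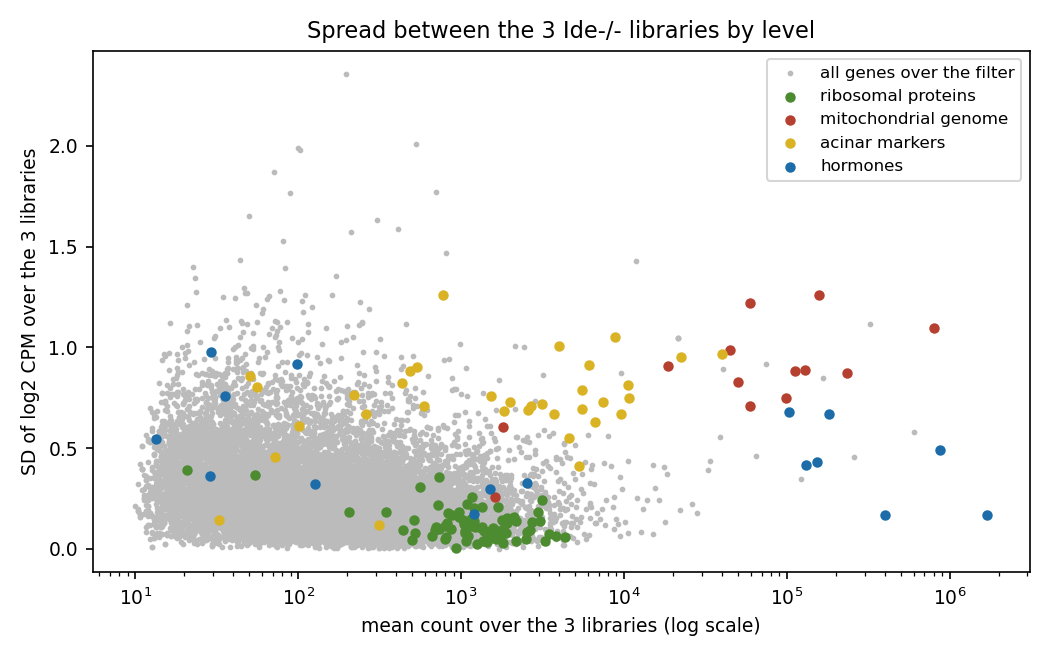
SD of log2 CPM over the 3 Ide-/- libraries (vertical axis) against the mean count (log axis) for all genes over the filter, with 4 lists coloured. Ribosomal protein genes lie along the floor (median 0.10), hormones lie in the middle (median 0.43), and mitochondrial genes and acinar markers lie high at large counts (medians 0.89 and 0.73).

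Among protein-coding genes with a mean of at least 10 TPM outside the acinar list, the widest spread belonged to a mixed group. Xlr3b, an X-linked lymphocyte-regulated family gene, was at 8.61, 3.47 and 47.6 TPM and Tgtp2, an interferon-induced GTPase, at 12.6, 7.85 and 44.4 TPM, both highest in replicate 3. Apoa2, an apolipoprotein of high-density lipoprotein, was at 61.1, 8.15 and 6.97 TPM, from 551, 53 and 26 counts, high only in replicate 1. Sh3gl1, an endocytosis adaptor, was at 16.7, 11.7 and 2.8 TPM, lowest in replicate 3. The predicted genes Gm10800 and Gm10801 were highest in replicate 3, with Gm10801 at 4.09, 10.5 and 49.8 TPM.

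Amylase genes that were not on the acinar list, although they encode acinar digestive enzymes, filled further places. Amy2a1 was at 285, 1623 and 1027 TPM, while Amy2a2, Amy2a3 and Amy2a4 share sequence and were each listed at 167, 487 and 472 TPM, the first of them tied with the next in rank, so their reads were divided between copies. mt-Atp6, mt-Atp8 and mt-Cytb completed the 12, each highest in replicate 3. Members of the Xlr3 family also share sequence, which makes the split between them uncertain.

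Of the genes with the narrowest spread, Srp54c, a copy of the signal recognition particle subunit gene that shares reads with its relatives, had an SD of 0.0012 on the log2 scale, at 131 CPM in each library. Cfl2, an actin-severing cofilin, had 0.0037 and the ribosomal protein gene Rpl18 0.0052. Tgds, Ahcyl1, Psmd9, Atg101 and Ube3a made up the 8, each at or under 0.0104. These 8 were the lowest of 3602 ranked genes, so their small SDs come from the selection as well.

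Within the lists, how firmly genes could be ordered was counted on neighbours by mean TPM. Of 621 neighbouring pairs with both genes at a mean of 1 TPM or more, 245 (39.5%) kept their order in all 3 libraries and 124 had ranges that did not overlap. An exact sign-flip test over 3 libraries cannot give a two-sided p under 0.25, so no order was tested. Clear steps were those from Ins2 to Gcg, from Sst to Nucb2, from Cpe to Scg5 to Pcsk2, from Scg2 to Scg3, from G6pc2 to Aldoa, from Abcc8 to Kcnk16 and from Ghr to Il1r1, each in 3 of 3 libraries with no overlap.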

How the data were processed

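RNA-seq of hand-picked islets was made from total RNA with a low-input kit, per the labels' protocols. The deposited gene tables hold the authors' estimated counts (RSEM expected counts, not normalized) and TPM (estimated counts per effective length, scaled per library). STAR 2.7.1a, RSEM 1.3.1 and GRCm38 are named per the submitters' processing notes. The strand setting used in counting, like the release of the annotation, is not given in the sources used here.

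Only the 3 Ide-/- libraries were used, and no contrast with Ide+/+ was made. The members and lists were chosen with earlier results of these data known, and the scale relative to the remaining genes was chosen after seeing the data. Of 55487 gene IDs, 55141 matched a symbol in GENCODE. A total of 57 lists (29 hand-written, 28 gene families) was used. Hand-written lists held 619 symbols, of which 6 did not match. Nuclear near copies of mitochondrial genes had at least 90% identity over 80% of their length (blastn 2.17.0). Promoter sequences are from RefSeq.

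Named genes were the 20 of highest mean TPM, the up to 8 highest of each list, the up to 2 of highest CV per list among those with a mean of at least 10 TPM, and the 12 most and 8 least variable protein-coding genes with a mean of at least 10 TPM outside the acinar list. Ide, Malat1, Xist and the Y-linked genes, and defining markers under 1 TPM, were named as well.

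Spread was computed with edgeR 4.0.16 in R 4.3.3 on rounded estimated counts of the genes that edgeR's filterByExpr kept, scaled by the trimmed mean of M-values, with a prior count of 2 for log2 values. CVs of TPM and correlations used genes with a mean of at least 10 counts. The script was tested on simulated data. Depth was 7143424 to 17445976 counts per library. Alternatives covered other denominators, thresholds and scalings, DESeq2 1.42.0, and each library left out. A few members of the lists are not reported here.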

Additional observations from a re-analysis of the deposited data

How the results depend on the processing

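No paired analysis was possible because no groups were compared. Of 181 alternative values, 139 kept within the spread or 1.5 times of the reported value, 42 moved and none changed sign. Raising the detection threshold to 5 TPM left 5377 genes in place of 11084. The hormone share of 41.6% became 50.9% over nuclear genes, 67.9% over nuclear protein-coding genes, 27.0% of estimated counts and 56.4% outside the mitochondrial genome and its copies, the last chosen after seeing the data. Over nuclear protein-coding genes, the number of genes carrying 50% of TPM was 2.33 on average in place of 4.67, and the acinar share was 1.88%. On counts, which are not divided by length, the log2 ratio of Ins2 to Ins1 was 2.06 and that of Gcg to insulin -1.26. The median gene-wise dispersion of DESeq2 gave a biological coefficient of variation of 0.12. That is a different measure from the common value of 0.191, so the difference is not only one of tools. Of the 114 alternatives for the spread of single lists, 28 moved, all of them under scaling by the total count.

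Leaving out each library in turn gave 11255 to 12057 detected genes, 4.5 to 5 genes for 50% of TPM, hormone shares of 38.1% to 45.4%, mitochondrial shares of 12.7% to 22.9% and acinar shares of 0.975% to 1.33%. The log2 ratio of Ins2 to Ins1 ranged from 3.53 to 3.59 and that of Gcg to insulin from -2.88 to -2.27. The coefficient of variation between libraries ranged from 0.134 to 0.247, the median CV of TPM from 11.9% to 26.1%, the median list SD from 0.201 to 0.277 and the number of neighbouring pairs in one order from 312 to 367, where only 2 libraries have to share it. The lowest of each of the 3 measures of spread, 0.134, 11.9% and 0.201, was the value without replicate 3, so these 3 summaries rest to a large extent on that library. The spread of the acinar markers instead rests on replicate 1, with a median SD of 0.16 without it in place of 0.73, and that of the alpha cell markers was 0.20 without it in place of 0.38. With 3 libraries, depth limits genes near 10 counts, where counting error was as large as the spread between libraries.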
